A study of Mus musculus with 8 samples.

Results

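The genes of DNA replication and mitosis were examined in lymphatic endothelial cells of the mouse ear, isolated by sorting. The list named 52 genes, in 3 sets of G1/S genes, G2/M genes and inhibitors of cyclin-dependent kinases, and a gene was taken where a probe set named it alone in the array's annotation. This gave 121 probe sets for 51 of the 52 genes, among 18193 genes named in that way. Cyclin B1, Ccnb1, had no probe set naming it alone and has no value here. The 51 genes were 24 of G1/S, 22 of G2/M and 5 inhibitors.

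All samples came from female FVB mice aged 8 to 10 weeks. These cells form the walls of lymphatic vessels, the drainage route for tissue fluid and migrating leukocytes, and they were sorted as CD45- CD31+ podoplanin+ cells. Inflamed samples came from ears with contact hypersensitivity, an allergic skin inflammation: the mice were first sensitised with 2% oxazolone, a contact allergen. After 5 days they received 1% oxazolone on the ears, 10 µl per side, and the tissue was collected 24 hours later. The ears of the untreated group were from mice labelled healthy and untreated. Each group held 4 samples, each pooled from 3 mice, in 4 pairs sorted and extracted on shared days, and the pairs were picked by the submitters for the quality of their RNA and cDNA.

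A cell that divides first licenses its replication origins by loading the MCM helicase, then cyclin D with Cdk4 or Cdk6 and cyclin E with Cdk2 inactivate the retinoblastoma protein, and E2F factors switch on the genes of DNA synthesis. Cyclin A and cyclin B with Cdk1, the Aurora and Polo kinases and the kinesins then carry the cell through mitosis, and Cdkn1a, Cdkn1b and their relatives block the kinases. Lymphatic endothelium of adult skin is a largely quiescent tissue that can proliferate when vessels grow. The transcripts of the mitotic genes are made late in the cycle, and their promoters are held silent in resting cells by the DREAM complex at CHR elements.

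The promoters of the 3 sets differ in such letters, and 3 of them are shown: Cdca8, the member that passed the test below, Mki67, the G2/M gene above background on all arrays, and Mcm6 as a G1/S gene. Windows of 300 bases around the gene start, from RefSeq on the build GRCm38.p6, were found for 41 of the 52 genes. The search, on both strands, was for CHR letters (TTTGAA or TTCGAA), for CCAAT, and for E2F letters (TTTGGCGC, TTTCCCGC, TTTCGCGC, TTTGCCGC or GGCGGGAA, of which TTTCCCGC can overlap GGCGGGAA on the other strand). Matches are printed in capitals, all 3 genes lie on the minus strand, and each window reads 5′ to 3′ along its gene.
Cdca8, chr4:124936868-124937167: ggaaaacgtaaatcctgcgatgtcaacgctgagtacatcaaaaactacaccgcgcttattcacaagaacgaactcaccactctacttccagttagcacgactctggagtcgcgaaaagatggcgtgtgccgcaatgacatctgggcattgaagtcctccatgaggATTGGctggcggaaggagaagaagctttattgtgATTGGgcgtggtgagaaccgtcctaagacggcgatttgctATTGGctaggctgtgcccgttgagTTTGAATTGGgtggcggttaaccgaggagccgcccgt
Mki67, chr7:135716330-135716629: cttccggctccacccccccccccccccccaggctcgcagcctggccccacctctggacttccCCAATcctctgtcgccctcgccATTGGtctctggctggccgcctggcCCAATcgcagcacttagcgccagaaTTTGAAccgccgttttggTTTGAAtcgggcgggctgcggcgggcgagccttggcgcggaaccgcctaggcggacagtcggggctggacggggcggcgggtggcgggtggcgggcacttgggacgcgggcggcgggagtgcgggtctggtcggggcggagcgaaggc
Mcm6, chr1:128359656-128359955: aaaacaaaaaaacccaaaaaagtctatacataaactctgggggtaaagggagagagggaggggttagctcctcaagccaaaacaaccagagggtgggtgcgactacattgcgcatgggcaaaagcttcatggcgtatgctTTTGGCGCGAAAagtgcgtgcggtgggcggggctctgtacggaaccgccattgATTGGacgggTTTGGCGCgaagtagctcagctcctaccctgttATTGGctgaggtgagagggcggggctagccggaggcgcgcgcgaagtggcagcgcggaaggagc
Cdca8 held 1 CHR match and 4 CCAAT matches, with the CHR letters running into the last CCAAT match, and no E2F match. Mki67 held 2 CHR and 3 CCAAT matches and no E2F match. Mcm6 held 3 E2F matches, of which a pair overlap, with 2 CCAAT matches and no CHR match. CHR letters were found in 15 of 19 G2/M genes, 2 of 18 G1/S genes and 0 of 4 inhibitors, against 21.7% of all genes with such windows. E2F letters were found in 1 of 19 G2/M genes, Cdk1, in 8 of 18 G1/S genes and in 0 of 4 inhibitors, against 4.46% of all genes. CCAAT was found in 17 of 19 G2/M genes, 10 of 18 G1/S genes and 3 of 4 inhibitors, against 41.1% of all genes. The windows of Nusap1 and Birc5 held none of these letters. A match describes the letters of the window and is not evidence that a factor is bound there.

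Levels below are log2 of the deposited MAS5 signal of a gene's brightest probe set, which compare arrays and not genes. Counts of arrays above background refer to that probe set too. An array's background ceiling, the 95th percentile of its bacterial control probe sets, lay between 2.53 and 3.31, and 53.5% to 62.6% of all probe sets were above it. The mean signal per array ranged between 126.2 and 160.4. A gene was tested where its mean level over the 8 arrays was at least 3.30, the median of all probe sets, which held for 10843 genes, and a change passed where limma gave an adjusted p under 0.05. The lymphatic markers were present. Prox1, the transcription factor that sets lymphatic identity, averaged 9.73 ± 1.38 in inflamed and 11.17 ± 0.18 in untreated samples, with n = 4 each and the SD after each mean. Podoplanin (Pdpn) averaged 12.00 ± 0.36 in inflamed and 11.44 ± 0.44 in untreated samples, and CD31 (Pecam1) 9.78 ± 0.85 in inflamed and 10.50 ± 0.10 in untreated samples. Ptprc, which encodes CD45, averaged 3.67 ± 1.62 in inflamed samples, with 3 of 4 arrays above background, and 0.91 ± 1.28 in untreated samples, with 0 of 4.

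Of the genes of replication and mitosis, 1 passed the test. Of the 37 members tested, 0 were higher and 1, the G2/M gene Cdca8, was lower in inflamed samples, beside 3.91% of all tested genes higher and 3.02% lower (6.94% in either direction). An unadjusted p under 0.05 was found for 9 of the 37, beside 22% of all tested genes. Over all 51 members, tested or not, 23 had a mean change above 0 and 28 below 0, and the groups did not overlap for 5, beside 9.43% of all genes without a filter. The other 14 members had mean levels under the filter. They were Cdc6, Tk1 and Ccne2 of the G1/S genes and Ccnb2, Aurka, Aurkb, Plk1, Bub1, Bub1b, Ttk, Top2a, Kif23, Tpx2 and Cenpa of the G2/M genes. Without the filter, over 18193 genes, the lowest adjusted p among these 14 was 0.232 and among all members 0.0527 (limma).

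**Figure D1:**
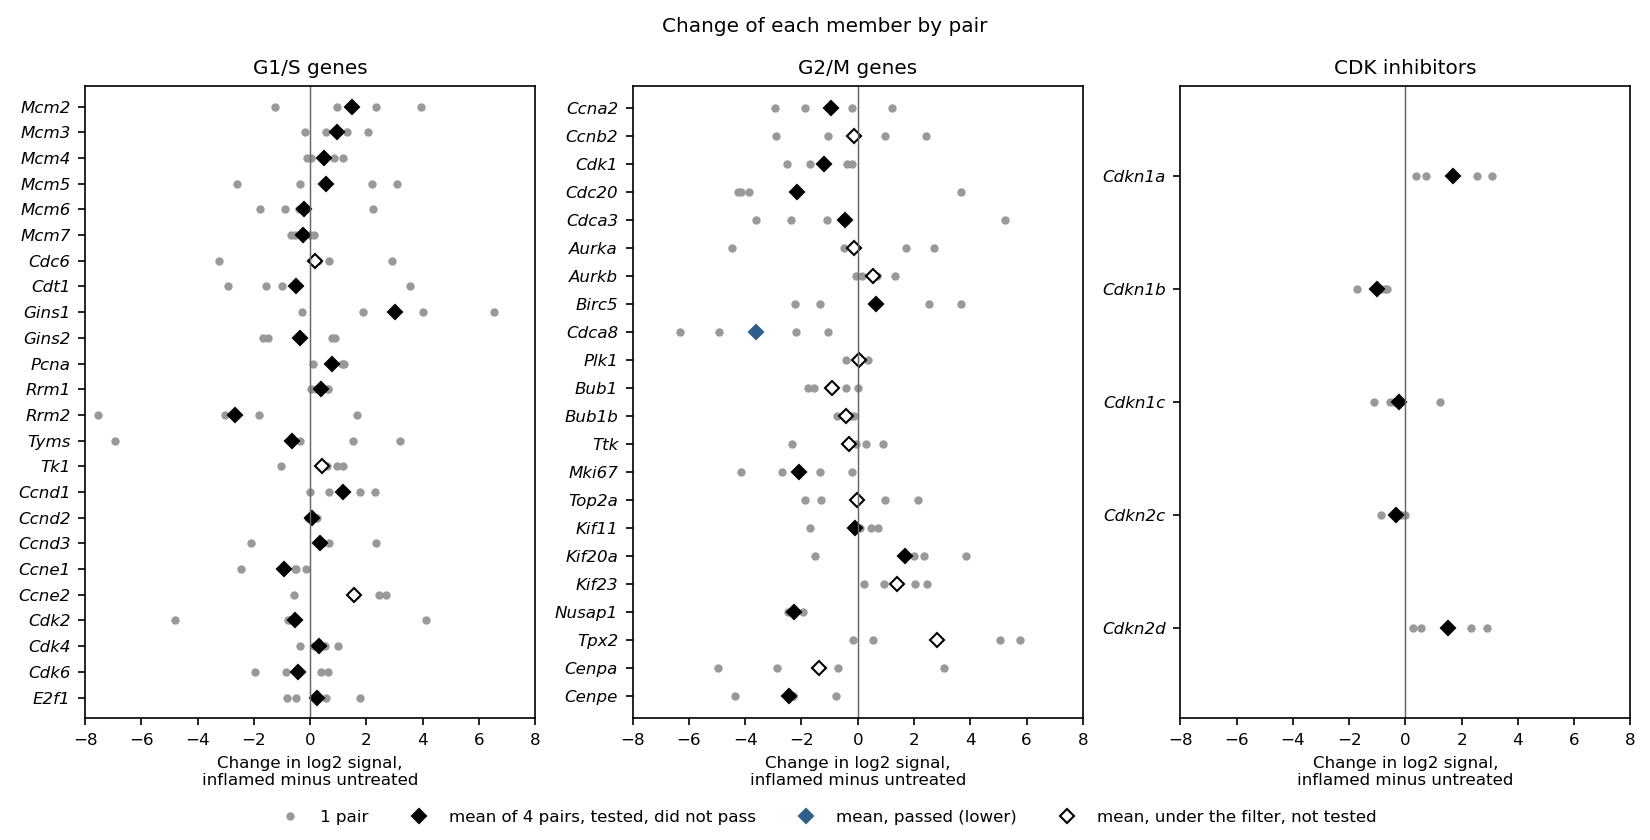
Change in log2 signal of the brightest probe set, inflamed minus untreated, for the 51 members, with 1 grey point per pair and a diamond for the mean of 4 pairs. The G1/S means spread over both sides of 0, most G2/M means lie below it, and 1 tested member, Cdca8, passed the test.

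Among the G1/S genes none passed, and the 11 genes of origin licensing and the replication fork had a median change of 0.50 on the log2 scale. The median change of the 24 G1/S members was 0.29 on the log2 scale, beside -0.04 over all genes without a filter, with 15 members above 0 and 9 below. Only 12 of the 24 were above background on all 8 arrays. Pcna, the sliding clamp that holds DNA polymerase on its template, had levels of 10.42, 10.96, 10.39 and 10.99 in inflamed replicates 1 to 4 and 10.31, 9.81, 9.67 and 9.80 in untreated replicates 1 to 4. Each inflamed array was above every untreated array, which in the higher direction held for 6.3% of all tested genes. The mean change of Pcna was 0.79 ± 0.23 (SE, n = 4 pairs; adjusted p = 0.0772, limma), higher in 4 of 4 pairs.

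Gins1, a subunit of the GINS complex that completes the replicative helicase, had levels of 6.83, 6.64, 4.70 and 5.62 in inflamed and 2.82, 0.10, 5.00 and 3.75 in untreated samples. It was above background on 4 of 4 inflamed and 2 of 4 untreated arrays, and the groups overlapped through untreated replicate 3. The change was 3.03 ± 1.08 (SE; adjusted p = 0.136, limma), higher in 3 of 4 pairs. Its partner Gins2 had a change of -0.37 (adjusted p = 0.847, limma).

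The 6 subunits of the MCM helicase, Mcm2 to Mcm7, had mean changes on both sides of 0. Mcm3 had levels of 7.20, 9.15, 9.09 and 9.08 in inflamed and 7.38, 8.58, 7.77 and 7.03 in untreated samples. Inflamed replicate 1 lay low and within the untreated range, and the change was 0.94 ± 0.44 (SE; adjusted p = 0.253, limma). Another Mcm3 probe set had no overlap and a change of 1.02, and the others had changes of 0.61, 2.24 and -2.09. Mcm2 spread between 2.21 and 8.30 in inflamed samples and between 3.47 and 5.32 in untreated samples, with a change of 1.49 ± 0.89 (SE; adjusted p = 0.377, limma). Mean changes were 0.50 for Mcm4 and 0.58 for Mcm5, and -0.21 for Mcm6 and -0.27 for Mcm7. The 95% interval for Mcm7 ran from -1.15 to 0.62. Cdt1, which loads MCM onto origins, had a change of -0.49 ± 1.00 (SE), and Cdc6, its co-loader, was above background on 2 arrays of each group.

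The genes that supply nucleotides gave no common direction. Rrm2, the regulated small subunit of ribonucleotide reductase, had levels of -0.48, 6.56, 4.75 and 3.40 in inflamed and 7.04, 4.88, 7.77 and 5.24 in untreated samples. The inflamed arrays spanned over 7 log2 units and overlapped the untreated ones, and the change was -2.68 ± 1.26 (SE; adjusted p = 0.256, limma). The other Rrm2 probe sets had changes of -1.22 and 1.61, so the direction differed between probe sets. The probe set with 1.61 had a mean level under the filter and was above background on 3 inflamed and 0 untreated arrays. Rrm1, the large subunit, had levels of 8.22, 7.75, 7.64 and 8.22 in inflamed and 8.02, 7.72, 7.01 and 7.60 in untreated samples, higher in 4 of 4 pairs, a direction that 13.6% of all tested genes showed. Its change was 0.37 ± 0.39 (SE; adjusted p = 0.636, limma). Tyms, thymidylate synthase, had a change of -0.64 ± 1.46 (SE; adjusted p = 0.853, limma) on levels between -0.38 and 6.58 in inflamed and between -0.25 and 6.54 in untreated samples. Tk1, thymidine kinase, lay between 3.01 and 4.07 in inflamed and between 1.87 and 4.05 in untreated samples.

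The D cyclins, which couple growth signals to Cdk4 and Cdk6, were above background on all arrays, and their changes differed in size. Ccnd1 had levels of 8.89, 9.36, 9.14 and 8.61 in inflamed and 6.58, 7.58, 9.16 and 7.94 in untreated samples. The groups overlapped through untreated replicate 3, and the change was 1.19 ± 0.44 (SE; adjusted p = 0.152, limma). A second Ccnd1 probe set read 8.13, 8.03, 8.36 and 7.78 in inflamed and 7.02, 6.41, 7.25 and 6.46 in untreated samples, with no overlap and a change of 1.29. The other had a change of 0.36, also with no overlap. With each probe set tested on its own, their adjusted p-values were 0.153, 0.115 and 0.743 (limma).

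Ccnd2 had levels of 10.20, 10.16, 9.05 and 9.01 in inflamed and 10.28, 9.98, 9.11 and 8.76 in untreated samples, so the pairs differed more from each other than the groups did. Its change was 0.07 with a 95% interval from -0.46 to 0.60 (adjusted p = 0.900, limma), while its 7 probe sets ranged from -0.24 to 1.47. Ccnd3 had a change of 0.34 with an interval from -1.38 to 2.06 (adjusted p = 0.851, limma). Cdk4 had a change of 0.33 ± 0.37 (SE; adjusted p = 0.668, limma). Cdk6, its close relative, had a change of -0.45 from its brightest probe set and 1.45 from another.

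Ccne1, the E cyclin that drives entry into S phase, had levels of 4.48, 2.52, 4.40 and 4.92 in inflamed and 5.03, 4.98, 4.92 and 5.08 in untreated samples. It was lower in 4 of 4 pairs, as were 15.5% of all tested genes, and its change was -0.92 ± 0.74 (SE; adjusted p = 0.526, limma). Ccne2 was above background on 2 inflamed arrays and 1 untreated array. Its kinase Cdk2 had a change of -0.55 ± 1.26 (SE), and E2f1, an activating E2F factor, 0.25 ± 0.78 (SE), neither past the threshold.

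The G2/M genes sat near the background in both groups, with mean changes below 0 for most members. Of 22 G2/M genes, 11, 11, 7 and 6 were above background in inflamed replicates 1 to 4, and 15, 16, 12 and 9 in untreated replicates 1 to 4. Each inflamed array had fewer of them than its untreated partner, while of the 24 G1/S genes 20, 21, 20 and 22 were above background in inflamed and 22, 22, 22 and 19 in untreated samples. The share of all probe sets above background ran from 53.5% to 56.0% on inflamed and from 54.9% to 62.6% on untreated arrays, and its part in the G2/M counts was not tested. Only Mki67 was above background on all 8 arrays. Aurkb was at or under background on every array. The median change of the 22 members was -0.35, beside -0.04 over all genes without a filter. The array medians over all probe sets averaged 3.38 in inflamed and 3.69 in untreated samples. Cdca8 did not pass with median centring, which sets these medians equal, and the part of this offset in the counts here was not tested. Of the 22, 16 had a mean change below 0, beside 51.6% of all genes without a filter. Of the 22, 7 were lower in 4 of 4 pairs, beside 12% of all genes, and 1 was higher in 4 of 4 pairs, beside 11.5%. The groups did not overlap for 2 of the 22, both lower, beside 4.88% of all genes lower and 4.56% higher.

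**Figure D2:**
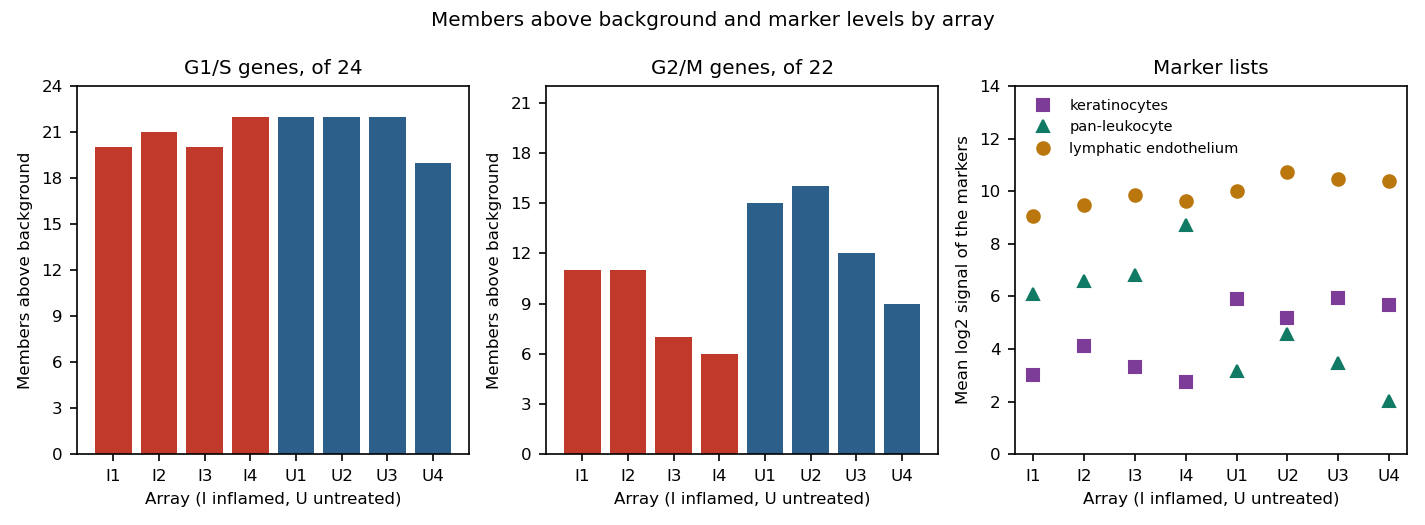
Bars count the G1/S and G2/M members above background on each array (I, inflamed; U, untreated; replicates 1 to 4), and points give the mean log2 signal of 3 marker lists. The G2/M bars stand at 6 to 11 on inflamed and 9 to 16 on untreated arrays, and the keratinocyte points at 2.75 to 4.12 on inflamed and 5.17 to 5.92 on untreated arrays.

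Cdca8, which encodes borealin of the chromosomal passenger complex, fell in inflamed samples. Its levels were 2.95, 3.86, 3.31 and 3.93 in inflamed and 9.26, 8.78, 5.51 and 5.00 in untreated samples. All inflamed arrays lay within 1 log2 unit of background, no array of the groups overlapped, and untreated replicates 1 and 2 were far above untreated replicates 3 and 4. Groups that did not overlap in the lower direction were seen for 6.84% of all tested genes. The means were 3.51 ± 0.47 in inflamed and 7.14 ± 2.19 in untreated samples, SD over 4 arrays each, a change of -3.63 ± 0.92 (SE; adjusted p = 0.0477, limma) in the same direction in 4 of 4 pairs. Its other probe sets, with mean levels under the filter, had changes of -1.93 and -2.69, and on each the groups overlapped. The probe set with -1.93 was above background on 1 inflamed and 3 untreated arrays, and lower in 3 of 4 pairs. The probe set with -2.69 was above background on 1 inflamed and 2 untreated arrays, and lower in 2 of 4 pairs. The call lay close to the threshold: its adjusted p ranged from 0.0289 to 0.182 over 11 alternative settings and passed in 4 of them, and it was lost without replicate 1, 2 or 3 (adjusted p = 0.182, 0.168 and 0.0994, limma). The mean level of keratinocyte markers was also lower on every inflamed array than on its untreated partner, as given at the end.

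The partners of Cdca8 in the passenger complex, which corrects how chromosomes attach to the spindle, differed among themselves. Birc5, survivin, had levels of 6.36, 6.80, 3.12 and -0.05 in inflamed and 3.85, 3.14, 5.34 and 1.30 in untreated samples. The groups overlapped widely, and the change was 0.65 ± 1.10 (SE; adjusted p = 0.789, limma). The kinase of the complex, Aurkb, spanned 1.60 to 2.79 in inflamed and 1.45 to 2.18 in untreated samples, all at or under background. Incenp, the scaffold of the complex and not among the 52 listed genes, had levels of 3.55, 0.31, 1.44 and 3.49 in inflamed and 8.64, 5.16, 7.04 and 8.56 in untreated samples. Its groups did not overlap, and it fell by 5.15 on the log2 scale (SE 0.67; adjusted p = 0.00247, limma). As 2 of 4 inflamed arrays were at or under background and their mean of 2.20 was too, the size of this fall is not a measured ratio. Its other probe sets had changes of -1.86 and 0.49, and of -1.36 and 0.04 where no array was above background. Without replicate 1 another probe set became the brightest, with a change of -1.99 (adjusted p = 0.393, limma).

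The other kinases and checkpoint genes of mitosis were left out by the filter on low levels, and none passed without it. On their brightest probe sets, Aurka, Plk1, Bub1 and Ttk were above background on no inflamed array, and on 2, 1, 1 and 1 of the untreated arrays. A second Aurka probe set was above background on 2 inflamed and 2 untreated arrays, with a change of 0.94. Bub1b was above background on 2 of 4 inflamed and 3 of 4 untreated arrays. Bub1 spanned 0.30 to 2.49 in inflamed and 2.05 to 3.22 in untreated samples. It was lower in 4 of 4 pairs, although the change in pair 4 was only -2e-04.

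Of the genes for cyclins, Cdk1 and the factors that degrade cyclins, each had a mean change below 0 and none of the 4 tested passed. Ccna2, cyclin A2, had levels of 3.99, 4.58, 5.98 and 1.36 in inflamed and 4.21, 6.44, 4.76 and 4.30 in untreated samples. Inflamed replicate 3 was above 3 of the untreated arrays, and the change was -0.95 ± 0.86 (SE; adjusted p = 0.579, limma). Cdk1, the kinase of mitotic entry, had levels of 3.36, 2.25, 2.46 and 4.00 in inflamed and 3.73, 3.96, 4.96 and 4.22 in untreated samples. It was lower in 4 of 4 pairs and above background on 2 of 4 inflamed and 4 of 4 untreated arrays, with a change of -1.20 ± 0.81 (SE; adjusted p = 0.437, limma).

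Cdc20, the activator of the anaphase-promoting complex, had levels of 7.18, 1.23, 2.26 and 1.10 in inflamed and 3.51, 5.38, 6.14 and 5.36 in untreated samples. Inflamed replicate 1 was the highest of all 8 arrays and the other inflamed arrays were under background, and the change was -2.16 ± 1.32 (SE; adjusted p = 0.390, limma). A second Cdc20 probe set averaged 2.43 in inflamed and 4.57 in untreated samples. Tested on its own, it had a change of -2.14 ± 0.91 (SE; adjusted p = 0.212, limma). Cdca3, which triggers the degradation of the mitotic inhibitor Wee1, had a change of -0.46 ± 1.34 (SE), and Ccnb2, cyclin B2, was above background on 1 array of each group.

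Genes of chromosomes, spindle and centromere included the proliferation marker Mki67, which coats mitotic chromosomes. Mki67 had levels of 6.41, 4.00, 3.47 and 5.47 in inflamed and 7.75, 6.70, 7.63 and 5.67 in untreated samples. Inflamed replicate 1 was above untreated replicate 4, so the groups overlapped although each inflamed array was below its partner. The means were 4.84 ± 1.34 in inflamed and 6.94 ± 0.97 in untreated samples, SD over 4 arrays each, and the change -2.10 ± 0.75 (SE; adjusted p = 0.135, limma). Top2a, the topoisomerase that untangles sister chromosomes and another common marker of division, had levels of 2.41, 5.33, 2.10 and 1.92 in inflamed and 4.27, 3.19, 1.13 and 3.22 in untreated samples, above background on 1 inflamed and 2 untreated arrays.

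Nusap1, a spindle-associated microtubule binder, had levels of 4.44, 1.92, 2.69 and 1.22 in inflamed and 6.69, 3.87, 5.02 and 3.71 in untreated samples. It was lower in 4 of 4 pairs, above background on 1 of 4 inflamed and 4 of 4 untreated arrays, and its change was -2.25 ± 0.74 (SE; adjusted p = 0.112, limma). Its other probe set had a change of 1.57, on the other side of 0. Cenpe, a kinesin at the centromere, had levels of 0.93, 3.44, 3.05 and 1.36 in inflamed and 5.28, 5.73, 3.84 and 3.66 in untreated samples. The groups did not overlap, 2 of 4 inflamed arrays were above background, and the change was -2.43 ± 0.86 (SE; adjusted p = 0.135, limma).

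Some spindle genes had means above 0. Tpx2, which recruits Aurora A to the spindle, had levels of 5.67, 5.47, 2.24 and 2.79 in inflamed and -0.10, 0.40, 2.40 and 2.25 in untreated samples. No untreated array was above background on this probe set, and of the inflamed arrays only replicates 1 and 2 were. The size of this difference is therefore not a measured ratio. Another Tpx2 probe set was above background on 2 inflamed arrays and 1 untreated array, with a change of 0.84, and the gene was left out by the filter. Kif20a, a kinesin of cell division, had a change of 1.67 ± 1.00 (SE; adjusted p = 0.378, limma). Kif23, its relative at the midbody, was higher in 4 of 4 pairs with 2 inflamed and 0 untreated arrays above background. Kif11, the motor that separates the spindle poles, had a change of -0.10 ± 0.81 (SE). Cenpa, the histone of the centromere, was above background on no inflamed array and on 2 untreated arrays.

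**Figure D3:**
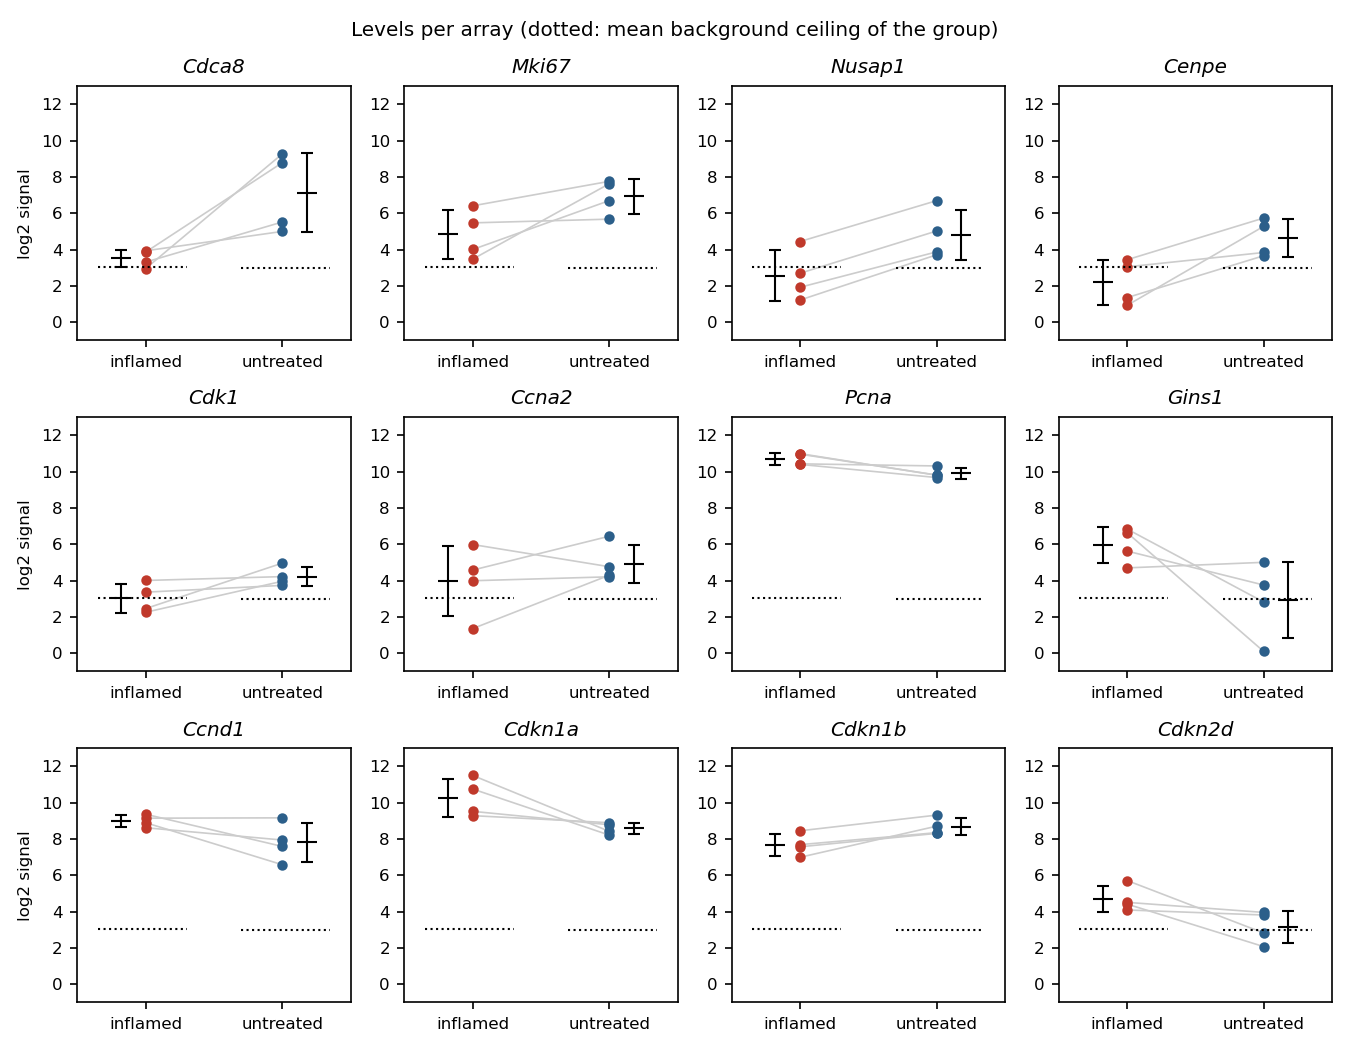
Log2 signal of 12 members on each array, inflamed on the left and untreated on the right of each panel, with pairs joined by grey lines, bars for the mean and SD of 4 samples, and dotted lines for the mean background ceiling of each group. The inflamed points of Cdca8 lie at 2.95 to 3.93, all below the untreated ones, while the inflamed points of Pcna and Cdkn1a lie above their untreated ones.

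The inhibitors had mean changes on both sides of 0, and none passed on its brightest probe set. Cdkn1a, the inhibitor p21 that p53 and other stress signals induce, had levels of 9.28, 10.74, 9.51 and 11.49 in inflamed and 8.89, 8.21, 8.78 and 8.41 in untreated samples. Every inflamed array was above every untreated array, with inflamed replicates 2 and 4 the highest. Its change was 1.69 ± 0.45 (SE; adjusted p = 0.056, limma). A second probe set read 9.75, 10.07, 9.37 and 10.52 in inflamed and 8.40, 7.40, 5.69 and 7.03 in untreated samples, again with no overlap. Tested on its own it was higher by 2.80 ± 0.43 (SE; adjusted p = 0.00567, limma), beside 5.72% of 19626 probe sets called, a test added after the difference between probe sets was seen.

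Cdkn1b, the inhibitor p27 of resting cells, had levels of 7.56, 7.68, 6.98 and 8.44 in inflamed and 8.30, 8.34, 8.70 and 9.31 in untreated samples. It was lower in 4 of 4 pairs, though inflamed replicate 4 lay within the untreated range, and the change was -0.99 ± 0.37 (SE; adjusted p = 0.155, limma). Its other probe set had a change of -0.98. Cdkn2d, the inhibitor p19 of Cdk4 and Cdk6, had levels of 4.41, 5.71, 4.51 and 4.09 in inflamed and 2.07, 2.82, 3.95 and 3.81 in untreated samples, with no overlap and a change of 1.51 ± 0.81 (SE; adjusted p = 0.319, limma). Cdkn2c, its relative p18, had a change of -0.34 ± 0.53 (SE), lower in 4 of 4 pairs. Cdkn1c, the inhibitor p57, had a change of -0.21 with an interval from -1.23 to 0.81 (adjusted p = 0.845, limma).

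Different probe sets of one gene often disagreed. Of the 38 members with several, 19 had all mean changes on the same side of 0 and 19 did not. Of the 10 members with at least 2 probe sets above background on all 8 arrays, 6 had them all on the same side, and Ccnd2, Cdk4, Cdk6 and Rrm1 did not.

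**Figure D4:**
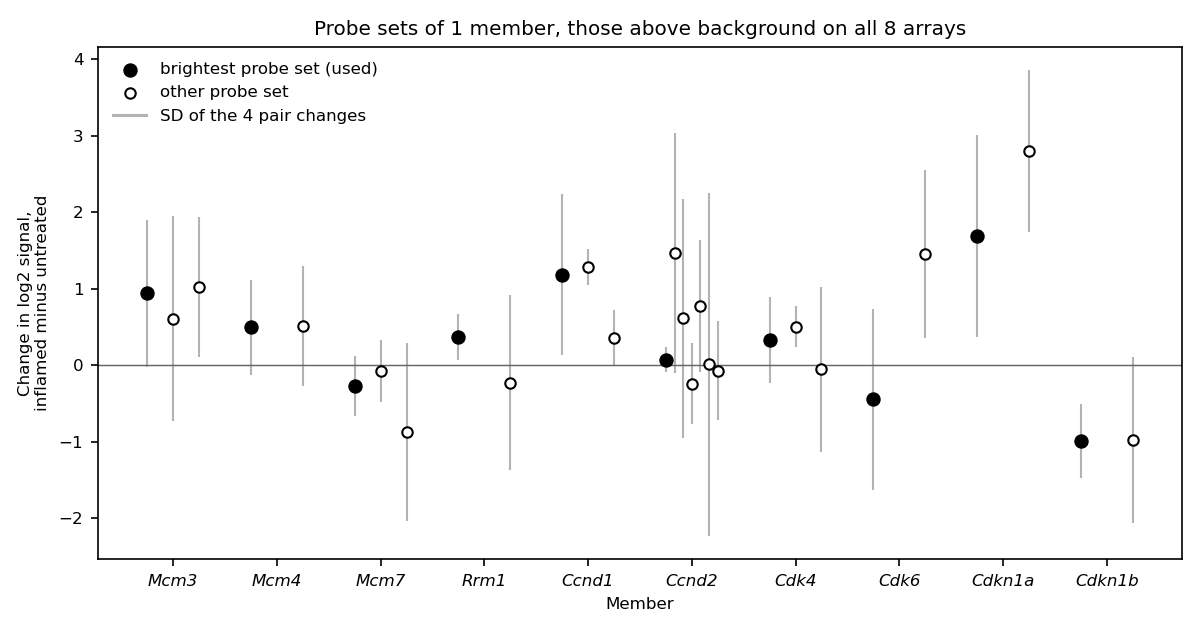
Change in log2 signal, inflamed minus untreated, of each probe set above background on all 8 arrays, for the 10 members with at least 2 of them, with filled points for the brightest probe set and bars for the SD of the 4 pair changes. Both Cdkn1a probe sets lie above 0 at 1.69 and 2.80 and both Cdkn1b probe sets below it at -0.99 and -0.98, while those of Ccnd2 and Cdk6 lie on both sides.

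Other genes of the cycle came from 6 lists, whose counts stand beside 3.91% of all tested genes higher and 3.02% lower. Of 33 tested genes of replication origins and forks and 15 of the RB, E2F and DREAM machinery, 0 passed in either direction by limma, and 1 of each list had an unadjusted p under 0.05. Of 20 tested mitotic genes, 0 were higher and 3 were lower: Incenp, Pbk and Stmn1. Pbk, a mitotic kinase, had levels of 1.05, 3.75, 3.79 and -0.09 in inflamed and 6.16, 7.60, 7.19 and 4.90 in untreated samples, a fall by 4.34 (SE 0.74; adjusted p = 0.009, limma). Of its inflamed arrays 2 of 4 were above background and their mean of 2.12 was not, so the size of this fall is likewise not a measured ratio. Stmn1, stathmin, which takes microtubules apart, had levels of 8.66, 7.61, 8.42 and 8.11 in inflamed and 10.14, 10.76, 10.61 and 10.78 in untreated samples. All arrays were far above background and did not overlap, and the fall was 2.37 (SE 0.32; adjusted p = 0.00294, limma), with 2.36 from a second probe set. The median change was -0.26 for the 47 mitotic genes on the array, 0.04 for the 38 genes of origins and forks and 0.05 for the 18 RB, E2F and DREAM genes, beside -0.04 over all genes without a filter.

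In the list of other cell cycle inhibitors and exit genes, the genes that passed fell. The list is mixed and also held Skp2, Cks1b and Cks2. Of 10 tested, 0 were higher and 2 were lower. Btg2, an antiproliferative gene, averaged 7.45 ± 0.94 in inflamed and 9.65 ± 0.19 in untreated samples and fell by 2.20 (SE 0.45; adjusted p = 0.0194, limma). Ccng2, a cyclin of resting cells, averaged 3.71 ± 0.76 in inflamed and 6.75 ± 0.53 in untreated samples and fell by 3.04 (SE 0.69; adjusted p = 0.0305, limma). Of 18 tested targets of p53, 1 was higher and 3 were lower. Aen, an apoptosis-enhancing nuclease, rose by 2.00 (SE 0.47; adjusted p = 0.0354, limma), while Sesn1, Trp53inp1 and Plk2 fell by 3.33, 2.22 and 1.75 (adjusted p = 0.00828, 0.00673 and 0.0448, limma). Of 18 tested genes in the list of MYC and growth factor response genes, 2 were higher and 0 were lower. That list also held the Myc genes themselves, Max and the Mxd genes. Ncl, nucleolin of the nucleolus, rose by 1.07 (SE 0.14; adjusted p = 0.00311, limma) and Nolc1, a nucleolar phosphoprotein, by 2.09 (SE 0.41; adjusted p = 0.0166, limma). Several of these calls were lost under other settings. Plk2 passed in 4 of 12, with adjusted p-values up to 0.161 (limma), and was lost without any 1 of the 4 replicates. Aen and Btg2 passed in 8 of 12, Nolc1 in 7 of 12 and Ccng2 in 7 of 11. Aen was lost without replicate 1, 3 or 4, Btg2 and Nolc1 without replicate 2, 3 or 4, Ccng2 without replicate 1, 2 or 3 and Sesn1 without replicate 3.

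Markers of some other cell types moved with inflammation beside these genes. The 11 keratinocyte markers on the array had mean levels of 2.75 to 4.12 in inflamed and 5.17 to 5.92 in untreated samples, lower in 4 of 4 pairs, and log2 of their summed signal spanned 7.77 to 10.45 in inflamed and 10.11 to 12.22 in untreated samples. Of 8 tested, 4 were lower, Krt5, Krt10, Krt2 and Krt15, and 0 were higher. Krt2, Krt15 and Flg were at or under background on every inflamed array, and Krt1 and Flg on every untreated array. Basal keratinocytes of the epidermis divide throughout life and do not carry CD31, which the sort required. Their part in the lower values of Cdca8, Incenp, Pbk and Stmn1 was not tested. The 11 lymphatic markers had mean levels of 9.07 to 9.84 in inflamed and 10.00 to 10.73 in untreated samples, with 1 higher and 5 lower of 10 tested. The 12 endothelial markers had mean levels of 8.55 to 9.55 in inflamed and 9.32 to 10.31 in untreated samples. Of 12 tested, 1 was higher and 4 were lower. The 10 fibroblast markers had mean levels of 8.46 to 10.31 in inflamed and 7.51 to 9.78 in untreated samples. Of 10 tested, 1 was higher and 0 were lower. The 8 cartilage markers had mean levels of 6.09 to 8.46 in inflamed and 6.61 to 9.04 in untreated samples. Of 7 tested, 0 passed.

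The 6 pan-leukocyte markers had mean levels of 6.08 to 8.71 in inflamed and 2.02 to 4.57 in untreated samples, and log2 of their summed signal spanned 10.28 to 12.65 in inflamed and 7.15 to 9.52 in untreated samples. Of 5 tested, 2 were higher, Cd53 and Fcer1g, and 0 were lower, and Ptprc and Cd53 were at or under background on every untreated array. The 12 neutrophil markers had log2 summed signals of 9.57 to 10.71 in inflamed and 5.50 to 6.52 in untreated samples, and mean levels of 3.28 to 3.96 in inflamed and 1.48 to 2.43 in untreated samples. Both neutrophil markers tested were higher, S100a8 by 7.02 and S100a9 by 7.30 (adjusted p = 0.00151 and 0.00121, limma), while Elane, Ngp and Ltf were at or under background on every inflamed array and Ltf, Cxcr2 and Csf3r on every untreated array. The 11 monocyte and macrophage markers had mean levels of 4.30 to 5.53 in inflamed and 3.03 to 4.31 in untreated samples, higher in 4 of 4 pairs, and log2 summed signals of 9.47 to 10.89 in inflamed and 8.94 to 10.16 in untreated samples. Of 7 tested, 0 passed by limma and 2 had an unadjusted p under 0.05. The 10 T and NK cell markers had mean levels of 1.48 to 3.52 in inflamed and 1.69 to 2.43 in untreated samples. The sort was made to remove CD45+ cells, and the part of leukocytes in the higher values of Pcna and Cdkn1a was not tested. The 3′ to 5′ ratio of Gapdh, a measure of RNA and amplification quality, was 3.30, 3.26, 3.08 and 2.58 on the log2 scale in inflamed and 3.77, 4.16, 3.40 and 4.08 in untreated samples, with no overlap, and its part in any change was not tested. The same ratio of Actb averaged -0.07 in inflamed and -0.08 in untreated samples. In such bulk samples fewer cells of a type and less RNA per cell cannot be told apart.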

How the data were processed

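RNA of 8 samples of sorted lymphatic endothelial cells, 4 inflamed and 4 untreated, each from 3 mice, was amplified to cDNA by a linear isothermal method and hybridised to 1-colour arrays, per the labels' protocols. The deposited table holds 1 linear intensity per probe set and array, named as MAS5 in the submitters' processing notes. The sources used here do not give its version or scaling target.

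Of 45101 probe sets, 64 were array controls, 34945 named 1 gene, 932 several and 9160 none, and no gene was named from the last 2 kinds. Symbols were checked against RefSeq and 0 changed. Signals were taken to log2 with no pseudocount. Array medians differed by at most 0.468, under a limit of 0.5, so no further normalization was applied. The medians were 3.27 to 3.44 on inflamed and 3.56 to 3.74 on untreated arrays, with no overlap. Median centring, which sets these medians equal, was run as an alternative and is given in the closing section. The part of this offset between the groups in any change was not tested otherwise. Probe sets with a mean under 3.30 (a signal of 9.84) were left out, and the brightest probe set stood for a gene. The brightest probe set had a name ending in _x_at for 6 members and in _s_at for 7. Such endings mark probes that can match several transcripts. The calls of Cdca8, Incenp, Pbk and Stmn1 rest on probe sets of these kinds. The test over 10843 genes was that of limma 3.58.1 under R 4.3.3 (eBayes with trend, two-sided), blocked by pair, and p-values were adjusted by Benjamini-Hochberg over all of them. An SE is the moderated one. The fit was also run on simulated data with normally distributed noise and no background floor, which cannot show how it behaves for genes near background. The ceilings, from 27 bacterial controls, were signals of 5.79 to 9.94. Each p-value refers to pools of mice, and the number of arrays limits the precision.

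The pairing comes from the design text. Deviations of same-numbered samples from their group means correlated at 0.16, -0.00, 0.08 and 0.03. The members, their roles, the other lists and the rules were chosen with earlier results of these data known. Named with values were members past the threshold, the 3 of smallest p in each role, and Mki67, Top2a, Pcna, Ccna2, Cdk1, Ccnd1 to Ccnd3 and Cdkn1a to Cdkn1c, while other members have ranges or counts. Of the other lists, up to 4 genes past the threshold were named. Some genes outside this rule (Mcm2, Bub1, Cdk6, Tpx2, Tyms, Tk1 and members given by 1 change) were described after their values were seen. Alternatives are listed in the closing section.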

Additional observations from a re-analysis of the deposited data

Results flagged for a closer look

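Of 132 groups of 4 samples checked, 7 held 1 sample far from the other 3, and chance gives about 1 in 20. Inflamed replicate 1 had a Mcm3 level of 7.20, against 9.08 to 9.15 in the other inflamed samples. Inflamed replicate 4 had a Mcm5 level of 5.01, against 7.97 to 8.36, and a Cdca3 level of 5.85, against 2.68 to 2.83. The Cdk6 level of inflamed replicate 3 was 7.84, against 6.65 to 6.85. The Top2a level of inflamed replicate 2 was 5.33, against 1.92 to 2.41. Untreated replicate 1 had a Ccnb2 level of 4.64, against 1.40 to 1.89 in the other untreated samples. The Bub1b level of untreated replicate 3 was 1.17, under background, against 3.44 to 3.61.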

How the results depend on the processing

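Over 414 checks of members under alternative settings, 13 changed a call, and 34 of the 37 tested members passed under none. No called gene changed direction. Members higher in inflamed samples numbered 0 in the fit reported and 1 without the pair as a replicate block, with a stricter filter, with a pseudocount of 16, with the mean of probe sets and, as an alternative added after seeing the data, with each probe set tested, and 2 with median centring (Cdkn1a and Pcna). Members lower numbered 1 and became 0 without the intensity trend, without the filter, with the stricter filter, with median centring and with quantile normalization, and 0 to 1 when 1 replicate was left out. The stricter filter left 0 tested G2/M genes. Adjusted p-values ranged from 0.0074 to 0.216 for Cdkn1a and from 0.0179 to 0.324 for Pcna. Over all genes, 424 were higher and 328 lower, against 94 and 47 without the trend, 719 and 227 with median centring, and 194 to 293 and 103 to 185 with 1 replicate left out. Median centring shifted the median change of all genes to 0.22, against -0.09, and the higher share of calls to 76.0%, against 56.4%. Without the replicate block 384 were higher and 301 lower. Leaving out a replicate leaves fewer samples. Otherwise the cause was not tested. Signal near background limits the G2/M genes most.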
